A study of Homo sapiens with 24 samples.

Results

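The response of PD-L1-silenced cells to interferon gamma (IFNγ) was read from 6 of the 24 libraries of an RNA-seq series. They were chosen by their labels, as the 3 PD-L1si IFNγ libraries and the 3 PD-L1si libraries labelled A498. A498 is an established human line of clear cell renal cell carcinoma (ccRCC). In the PD-L1si groups the cells had been transfected with 20 nM of a pool of siRNAs against PD-L1, the checkpoint ligand encoded by CD274, and either received 50 ng/mL IFNγ for 24 hours, starting 24 hours after transfection, or received none. The Cnsi and Cnsi IFNγ groups were treated alike with a control siRNA, so that all groups shared the transfection. The same 4 groups exist for libraries labelled 786-O, a second ccRCC line, again with 3 libraries a group. The labels call the PD-L1 groups a knockout while the methods describe siRNA. The methods section on RNA sequencing names no PD-L1si group without IFNγ, although the section on siRNA transfection lists such a group. The line is named here as the labels name it, although the study's own tables attach the 786-O name to the effects found in these libraries. Nothing states that the 3 libraries of a group came from separate cultures, so the p-values measure the spread between these libraries, which may be technical.

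Library size ran from 22018085 to 25884205 counts in the 3 PD-L1si libraries and from 19256316 to 23263758 in the 3 PD-L1si IFNγ libraries. Levels are given as CPM, the count scaled to TMM-normalised library size, and CPM values are not corrected for gene length. Errors are the SD of 3 libraries for a level. For a log2 fold change the error is its size divided by the square root of the F statistic of the edgeR test. This approximates an SE and is not reliable for genes with few counts in a group. CD274 (ENSG00000120217, chromosome 9, 5450503 to 5470566, GRCh38) was checked first: it stood at 0.81, 1.01 and 0.926 CPM in the PD-L1si libraries against 5.07 ± 0.948 CPM in Cnsi, and at 26.9, 28.5 and 27.7 CPM in PD-L1si IFNγ against 194 ± 4.72 CPM in Cnsi IFNγ. The silenced groups lay below their controls in every library, and IFNγ still raised CD274 with the PD-L1 siRNA present (log2 fold change 4.92 ± 0.115, edgeR adjusted p = 4.08e-29). The markers of blood and endothelial cells were at or near 0: the T, B and NK cell list, 6 of whose 8 members had no count in the 6 libraries (CD3D, CD2, CD8A, NKG7 and GNLY among them), summed to 0 to 2 counts a library in either group. The macrophage list summed to 26 to 31 counts without and 10 to 22 with IFNγ, and the endothelial list, with PECAM1, CDH5, VWF and KDR at 0, to 9 to 12 and 1 to 3. The fibroblast and pericyte list summed to 807 to 938 counts without and 985 to 1191 with IFNγ. Among 10 kidney and ccRCC markers none was at 0.

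IFNγ is a dimeric cytokine secreted by activated T and NK cells. It binds IFNGR1 and IFNGR2 on the target cell, the kinases JAK1 and JAK2 phosphorylate STAT proteins, and STAT dimers bind GAS elements in promoters, among them that of IRF1, whose product then acts through ISRE elements on a second wave of genes. The classical outcome is more antigen presentation, antiviral defence and chemokine release, together with tryptophan breakdown and slower proliferation, and PD-L1 itself is one of the induced genes.

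The promoters of 5 induced genes are shown because they hold a GAS or ISRE match. That of PSMB9, also induced, was searched as well and held neither in the same window. Each sequence is the 250 bases before the RefSeq start (GRCh38.p14), 5′ to 3′ on the strand of the gene, with GAS matches (TTCNNNGAA) and ISRE matches (GAAA and GAAA with 2 free letters between them), both searched on both strands, in capitals. IRF1 lies at chr5:132490774-132491023 (minus strand), TAP1 at chr6:32853705-32853954 (minus), CXCL10 at chr4:76023498-76023747 (minus), GBP1 at chr1:89065209-89065458 (minus) and CD274 at chr9:5450292-5450541 (plus). In TAP1 and CD274 the first run of capitals holds 2 overlapping ISRE matches on the opposite strand, that of GBP1 is 1 match on the opposite strand, and that of CXCL10 is 1 match on the strand shown.
IRF1: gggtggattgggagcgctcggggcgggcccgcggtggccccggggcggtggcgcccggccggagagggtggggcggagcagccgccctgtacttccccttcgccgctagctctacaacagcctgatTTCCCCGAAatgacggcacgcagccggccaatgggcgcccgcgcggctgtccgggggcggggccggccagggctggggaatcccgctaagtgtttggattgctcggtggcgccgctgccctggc
TAP1: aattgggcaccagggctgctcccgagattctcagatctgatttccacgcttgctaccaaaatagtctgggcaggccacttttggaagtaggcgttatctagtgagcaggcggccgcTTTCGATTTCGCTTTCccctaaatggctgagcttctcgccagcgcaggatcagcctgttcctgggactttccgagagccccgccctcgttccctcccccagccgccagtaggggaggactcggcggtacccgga
CXCL10: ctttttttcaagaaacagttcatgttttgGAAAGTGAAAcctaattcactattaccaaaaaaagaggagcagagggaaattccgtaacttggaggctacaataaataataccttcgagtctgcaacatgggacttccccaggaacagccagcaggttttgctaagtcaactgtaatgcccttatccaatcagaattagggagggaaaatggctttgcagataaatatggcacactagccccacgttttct
GBP1: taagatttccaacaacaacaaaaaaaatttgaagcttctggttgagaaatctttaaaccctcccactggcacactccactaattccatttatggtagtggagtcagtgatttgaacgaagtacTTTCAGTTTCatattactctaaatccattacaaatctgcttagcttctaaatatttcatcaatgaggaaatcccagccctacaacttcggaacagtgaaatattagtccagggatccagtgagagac
CD274: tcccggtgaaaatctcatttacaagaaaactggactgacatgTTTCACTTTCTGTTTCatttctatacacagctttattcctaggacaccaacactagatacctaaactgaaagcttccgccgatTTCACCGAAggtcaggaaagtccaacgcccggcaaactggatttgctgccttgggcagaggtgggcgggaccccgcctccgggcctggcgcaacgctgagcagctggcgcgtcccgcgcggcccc
Of 12616 tested genes with a promoter in the table, 6.59% held a GAS and 2.93% an ISRE match in this window. Among the 2370 of them that rose with IFNγ the shares were 8.19% and 5.86%, and among the 212 that rose by over 3 on the log2 scale they were 15.6% and 20.3%. Genes that fell held them in 5.87% and 2.02%. A match is a run of letters and not a measured binding site.

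With the PD-L1 siRNA, IFNγ changed 33.5% of the genes tested, and large changes were more often rises than falls. Of 20916 genes tested, 3675 rose and 3333 fell (edgeR quasi-likelihood test, Benjamini-Hochberg adjusted p under 0.05 and a log2 fold change beyond 0.5), which is 17.6% and 15.9% of all genes tested. The counts of list members below are to be read beside these shares. A gene not past the test missed the adjusted p, the fold change or both. The median log2 fold change of all genes was -0.02. Rises of over 2-fold were seen in 1728 genes and falls in 1476, over 8-fold in 366 and 166, and over 32-fold in 131 and 36. Protein-coding genes made up 2625 of the rises and 2269 of the falls, and lncRNA genes 772 and 745. In a bulk sample a lower RNA level per cell and fewer cells of one kind cannot be told apart.

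**Figure D1:**
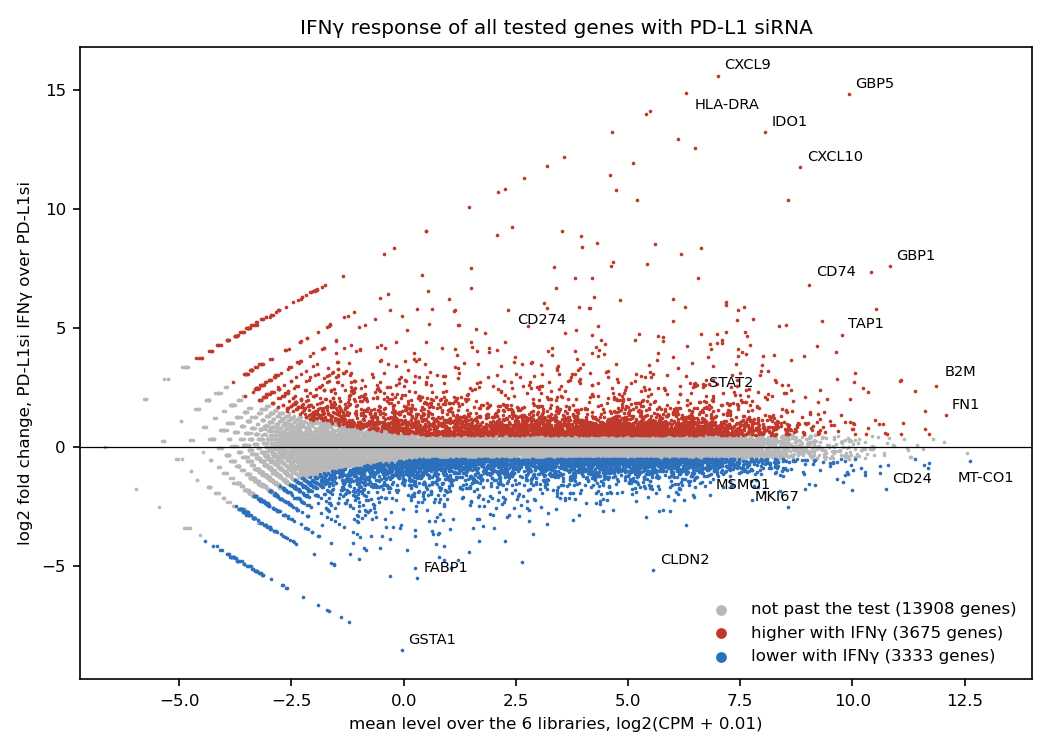
Each point is 1 of 20916 tested genes, with its mean level over the 6 libraries on the x axis (log2 of CPM + 0.01) and its log2 fold change, PD-L1si IFNγ over PD-L1si, on the y axis. The 3675 rises (red) reach further up than the 3333 falls (blue) reach down, and the straight rows of points at the left are genes with a count of 0 in one group, whose fitted fold change depends on the prior count.

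The signalling chain itself was induced at the level of its kinase, its STATs and its feedback inhibitor. STAT2, a subunit of the complex that binds ISRE elements, stood at 81.2, 82.5 and 86.2 CPM in PD-L1si and at 561, 522 and 554 CPM in PD-L1si IFNγ. The groups lay far apart (log2 fold change 2.71 ± 0.0452, edgeR adjusted p = 1.06e-33). JAK2, a kinase of the receptor, rose from 7.23 ± 0.399 to 47.8 ± 4.7 CPM. Of the 9 receptor and JAK-STAT genes 6 rose and none fell, with a median log2 fold change of 0.81. IFNGR1, the ligand-binding chain, was among the rises at 0.81, whereas IFNGR2 (0.23) and JAK1 (-0.02) were not past the test. SOCS1, which blocks the JAK kinases, was at 0.247, 0.379 and 0.32 CPM without and 19.3, 17.5 and 16.7 CPM with IFNγ, a log2 fold change of 5.82 ± 0.169. SOCS3 rose by 1.10 and USP18, a brake on type I interferon signalling, by 3.13, and 4 of the 10 inhibitors rose in all.

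IRF1, the transcription factor of the second wave, was at 32, 33.3 and 31.9 CPM in PD-L1si. It reached 1282.5, 1239 and 1244 CPM in PD-L1si IFNγ, with no overlap between the groups (log2 fold change 5.28 ± 0.0472, edgeR adjusted p = 7.42e-42). IRF7 rose from 2.24 ± 0.261 to 34.2 ± 2.36 CPM, and 3 of the 6 tested interferon regulatory factors rose in all. Of the interferons, IFNB1, the type I interferon of most cell types, had 1 count in all without IFNγ and 10 with it, a ratio of 12.8 (95% exact counting interval 1.83 to 557), so that its level remained close to 0.

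Class I antigen presentation, which shows peptides of the cell's own proteins to CD8 T cells, rose as a block: all 8 tested chains and regulators passed, with log2 fold changes between 2.37 and 4.13 and a median of 2.76. B2M, the invariant light chain, stood at 1061, 1132 and 1066 CPM in PD-L1si and at 5932, 7049.8 and 6183 CPM in PD-L1si IFNγ. This was the largest gain in CPM of the genes past the test. HLA-B, a classical heavy chain, went from 531 ± 18.7 to 3770.1 ± 106 CPM, also among the 5 largest gains. NLRC5, the transactivator of class I genes, was raised by 2.81 ± 0.0527 on the log2 scale. Reads of the HLA genes can be shared among close relatives, which makes single HLA values uncertain.

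Peptide supply moved with the chains. TAP1, a subunit of the peptide transporter, was at 63.1, 65.2 and 63.4 CPM and rose to 1694, 1690.2 and 1652 CPM with IFNγ (log2 fold change 4.72 ± 0.0444, edgeR adjusted p = 3.86e-41). PSMB9, a catalytic subunit that turns the proteasome into the immunoproteasome, went from 8.43 ± 0.667 to 336 ± 27.7 CPM, and its companions PSMB8 and PSMB10 rose by 2.44 and 3.66. In all 12 of 15 genes of peptide supply and loading rose. The exception in direction was CALR, the chaperone calreticulin, which fell from 1261.5 ± 37.8 to 556 ± 12 CPM. The constitutive proteasome stayed nearer to its starting level, with 4 of 14 subunits higher, none lower and a median of 0.19, and PSMB5, the subunit that PSMB8 replaces, was at -0.44, short of the threshold.

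Class II presentation, which normally belongs to professional antigen-presenting cells, began from no count in the PD-L1si libraries for 7 members and from 1 count for HLA-DPB1. All 18 tested members rose. CIITA, the master regulator of class II genes, was already present at 26.9, 25.6 and 25.4 CPM without IFNγ. It reached 164, 144.5 and 153 CPM with IFNγ, a log2 fold change of 2.57 ± 0.0517. Most chains had no count without IFNγ: HLA-DRA was at 0 in 3 of 3 PD-L1si libraries and at 162.5, 158 and 151 CPM in PD-L1si IFNγ, which is at least 4206-fold higher when the 0 is set to a floor of 3 counts over the group. By the same measure HLA-DPA1 was at least 2422-fold higher, HLA-DRB1 at least 2259.6-fold, HLA-DQB1 at least 1329-fold and HLA-DQA1 at least 637-fold. HLA-DOA and IFI30, a reductase of the lysosome, were the other members at 0, and IFI30 reached only 11 counts. CD74, the invariant chain that guides class II molecules, was at 15.9, 17.1 and 16.9 CPM and rose to 2932, 2478 and 2677 CPM (log2 fold change 7.34 ± 0.0615, edgeR adjusted p = 9.06e-43). CTSS, the protease that trims CD74, rose by 4.64. The median of the list was 5.02, or 4.78 with the 7 members at 0 set to their bound.

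Among the genes of defence inside the cell, the guanylate-binding proteins, GTPases that attack vacuoles of intracellular microbes, had a median log2 fold change of 5.94 over their list, or 4.51 with 1 member set to its bound. GBP1 (ENSG00000117228, chromosome 1, 89051882 to 89065360) was at 18.1, 18.2 and 20.5 CPM and rose to 3459, 3818 and 3628.5 CPM, a log2 fold change of 7.58 ± 0.0573 (edgeR adjusted p = 9.62e-44). GBP5 had 3, 2 and 0 counts in the 3 PD-L1si libraries and 43000, 38055 and 39955 in the PD-L1si IFNγ libraries, that is 1939.7 ± 65.5 CPM. GBP4 went from 0.578 ± 0.225 to 759 ± 29.1 CPM, and 6 of the 8 tested GTPases rose. Reads of these close paralogs, and of the pseudogene GBP1P1, which had 2 counts without and 11232 with IFNγ, cannot be fully told apart.

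Of 31 tested antiviral effectors 30 rose, with a median log2 fold change of 3.97. They included OAS2, which makes the 2-5A signal for RNA decay, at 0.599, 0.547 and 0.641 CPM without and 189, 204 and 196 CPM with IFNγ. MX1, which traps viral nucleocapsids, rose by 5.88 ± 0.0845 and the ubiquitin-like ISG15 by 4.83 ± 0.0547. IFITM2 was not past the test (0.01) although its neighbour IFITM1 rose by 7.69. Sensors of foreign nucleic acid rose in 13 of 15 cases, among them RIGI, the sensor of viral RNA, from 8.58 ± 0.425 to 119 ± 9.17 CPM and TLR3, the endosomal receptor for double-stranded RNA, by 1.16. AIM2, the inflammasome sensor of DNA, had 1 count without and 666 with IFNγ, a ratio of 855 (95% exact counting interval 153 to 33810). The PML and PARP list rose in 9 of 10 genes (PARP14 by 3.99), the TRIM ligases in 9 of 10 (TRIM21, the antibody receptor of the cytosol, by 2.93) and the apolipoprotein L genes in 5 of 5, with APOL1 going from 1644 ± 45.5 to 4665 ± 46.3 CPM.

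Among signals to other cells, the 3 ligands of CXCR3, the receptor of effector T cells, all rose. CXCL9 had no count in the 3 PD-L1si libraries and 5705, 5032 and 5313 counts in the PD-L1si IFNγ libraries, at least 6866-fold higher. CXCL10 was at 0.247, 0.295 and 0.249 CPM and rose to 855, 995 and 902 CPM (log2 fold change 11.75 ± 0.0956, edgeR adjusted p = 8.05e-43). CXCL11 had 2 counts in all without and 3339 with IFNγ, a ratio of 2143 (95% exact counting interval 593 to 17699). In all 8 of 9 chemokines for T cells rose, CCL5 by 3.80 and CX3CL1, the membrane-bound fractalkine, by 1.81. Chemokines for neutrophils rose in 2 of 6 cases, and CXCL8, the main one, was at 7.67 ± 0.655 without and 6.42 ± 0.262 CPM with IFNγ (log2 fold change -0.25, short of the threshold).

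Interleukins and related factors rose in 10 and fell in 2 of 17 cases. IL6, the acute-phase cytokine, went from 2.04, 2.11 and 2.07 to 27.8, 26.1 and 27 CPM, without overlap. IL15, which sustains T and NK cells, rose by 1.56 ± 0.0836, and IL15RA, the receptor chain that presents it, by 4.60 ± 0.0719. IL18BP, the soluble trap of IL-18, rose from 24.3 ± 1.32 to 368 ± 27.9 CPM. The strongest fall was that of CSF2, which was close to 0 (0.345 ± 0.148 to 0.082 ± 0.0335 CPM). The NF-kB list held 14 rises and 1 fall among 20 genes: TRAF1 rose by 3.18, the inhibitor TNFAIP3 by 2.39 and NFKBIA by 0.65, while NFKBIZ fell by 0.84. The TNF superfamily held 9 rises and 1 fall among 19. TNFSF10, the death ligand TRAIL, went from 909 ± 12.4 to 2003 ± 78.1 CPM, TNFSF13B, the B cell factor BAFF, from 0.2 ± 0.0549 to 28 ± 3.15 CPM, and TNFRSF10D, a decoy receptor for TRAIL, fell from 70.5 ± 2.09 to 16.2 ± 0.639 CPM. CD40 and FAS rose by 1.67 and 1.57.

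Complement genes rose in 10 of 16 cases and fell in 1. C1R and C1S, the proteases that start the classical pathway, were at 4.51, 4.42 and 3.85 and 10.3, 10.4 and 10.7 CPM in PD-L1si, respectively. With IFNγ they reached 289, 285 and 286 and 417, 449 and 429.8 CPM, log2 fold changes of 6.07 ± 0.066 and 5.37 ± 0.0535. C3, the central component, went from 438 ± 13.6 to 2156.5 ± 43.6 CPM, and SERPING1, the inhibitor of C1R and C1S, from 0.0915 ± 0.0689 to 31.1 ± 3.17 CPM, whereas CFI, the protease that inactivates C3b, fell by 1.04. Effectors of cell death rose in 15 of 24 cases and fell in 2, with CASP1, the inflammasome caspase, at 4.01 and MLKL, the executioner of necroptosis, at 2.00. BCL2, which protects from apoptosis, was 1 of the falls at -0.85.

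Ligands of checkpoint and NK receptors moved in both directions. Besides CD274, PDCD1LG2, which encodes the second PD-1 ligand PD-L2, went from 0.282, 0.253 and 0.249 to 35.3, 39.4 and 34.9 CPM, a log2 fold change of 7.09 ± 0.14. LGALS9, a ligand of TIM-3, and TNFRSF14, the ligand of BTLA, rose by 6.66 and 3.07, and VTCN1 (B7-H4), close to 0 throughout, had 21 counts without and 2 with IFNγ. Of 12 checkpoint ligands 6 rose and 1 fell. Of 9 NK receptor ligands 5 rose and 2 fell: ULBP1 rose from 3.25 ± 0.73 to 21.9 ± 1.48 CPM, while MICA, a ligand of the activating receptor NKG2D, fell from 51.4, 52.6 and 54.6 to 31.7, 29.9 and 29.1 CPM (log2 fold change -0.81 ± 0.0519). Adhesion molecules for leukocytes rose in 7 and fell in 3 of 13 cases. ICAM1 was at 221, 236 and 214 CPM and reached 1997, 1810.2 and 1915 CPM, and VCAM1 went from 107 ± 1.6 to 302 ± 23.9 CPM.

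**Figure D2:**
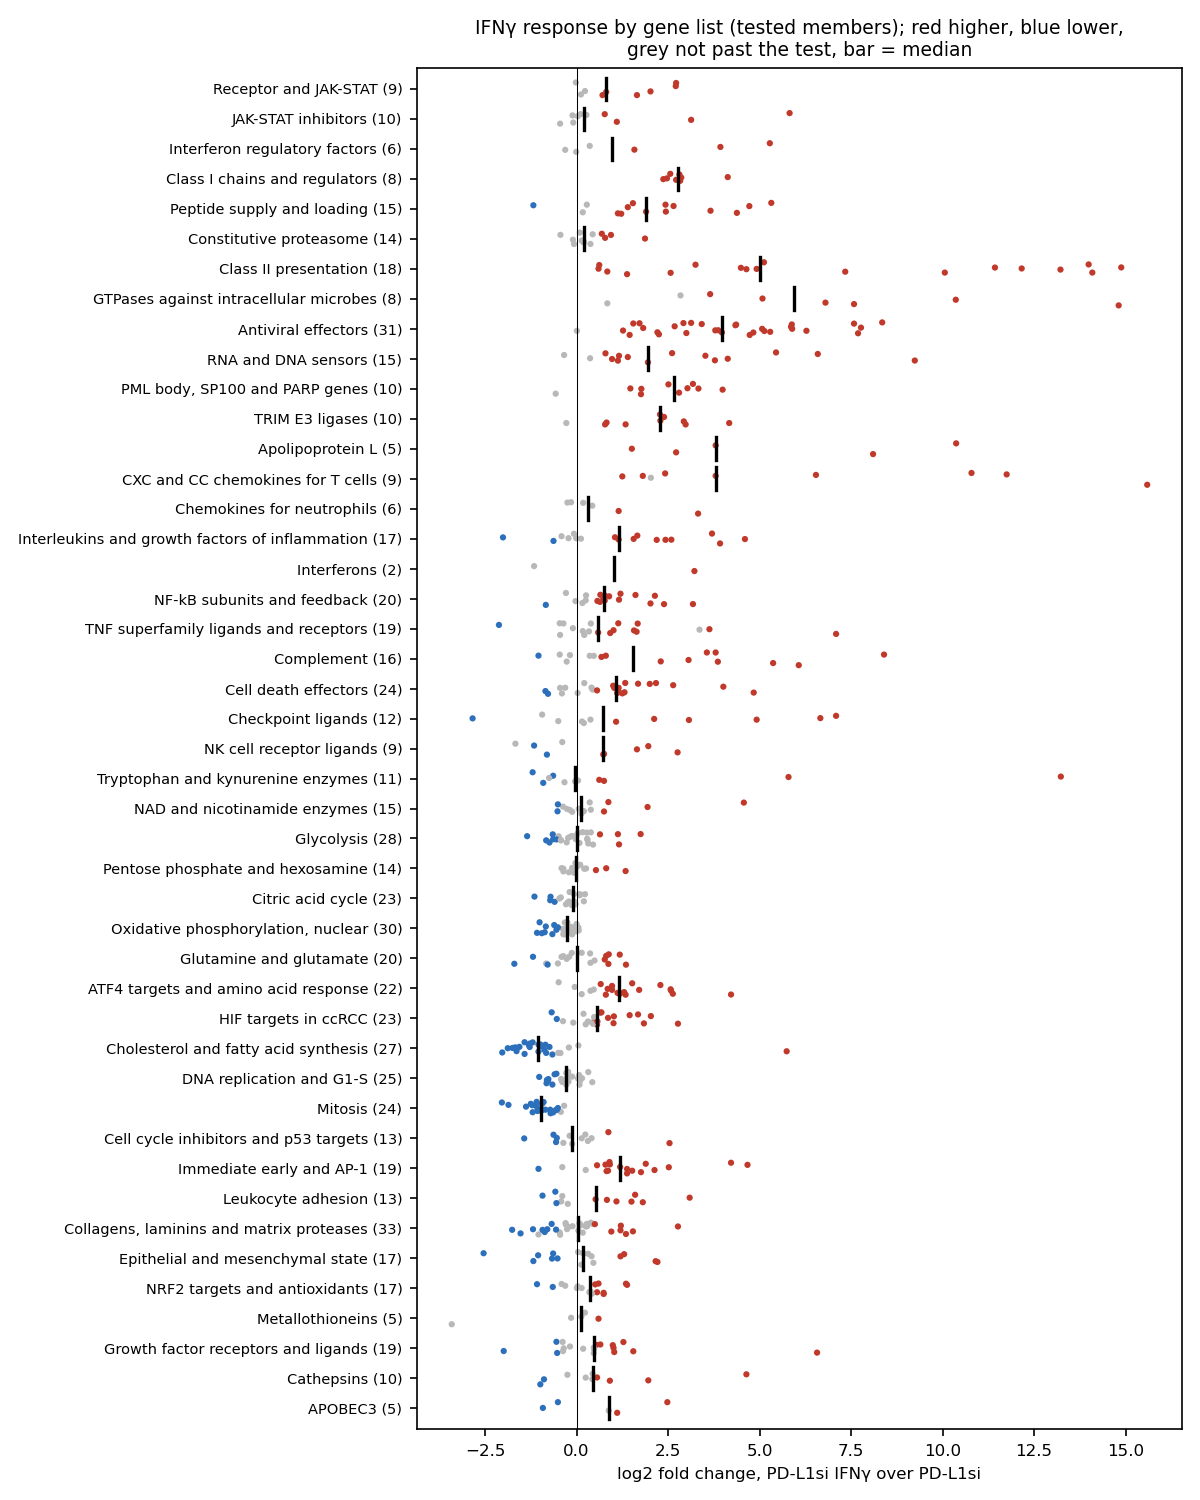
Each row is one list of genes with the number of tested members in brackets, each point a member at its log2 fold change, PD-L1si IFNγ over PD-L1si (red higher, blue lower, grey not past the test), and the bar the median. Class I, class II and antiviral genes lie almost wholly to the right, with medians of 2.76, 5.02 and 3.97, and cholesterol synthesis and mitosis to the left, with medians of -1.04 and -0.96.

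Genes of tryptophan metabolism moved in both directions. IDO1, the enzyme that opens the tryptophan ring, had 2, 2 and 0 counts in the PD-L1si libraries and 11759, 10754 and 10542 in the PD-L1si IFNγ libraries, the latter 513, 567 and 511 CPM. Its log2 fold change of 13.23 rests on 4 counts in the untreated group. WARS1, the tRNA synthetase for tryptophan, went from 53.3, 53.9 and 49.8 to 2932, 2914.5 and 2857 CPM (log2 fold change 5.79 ± 0.0482, edgeR adjusted p = 9.06e-43). Further down the kynurenine path, KYNU rose from 6.37 ± 0.271 to 10.8 ± 1.78 CPM, KMO was at -0.33, short of the threshold, and AFMID, QPRT and ACMSD fell by 0.64, 0.91 and 1.20. In all 4 of 11 genes rose and 3 fell. Of 15 genes of NAD and nicotinamide 4 rose and 2 fell. Over all genes the shares of rises and falls were 17.6% and 15.9%. NAMPT, the enzyme that salvages nicotinamide to NAD, was at 166, 169.8 and 168 CPM and rose to 604, 688 and 639.9 CPM, and NNMT, which methylates nicotinamide, rose by 0.87 ± 0.0393.

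Of 28 genes of glycolysis 4 rose, 6 fell and the median was 0.00. The glucose transporter SLC2A3 rose from 62.6 ± 4.34 to 211 ± 10.5 CPM and the hexokinases HK1 and HK2, which trap glucose in the cell, by 1.16 ± 0.0394 and 1.13 ± 0.0477. LDHA, lactate dehydrogenase A, was at 1354, 1386 and 1406 CPM without and 1358, 1447 and 1411 CPM with IFNγ, not past the test. ALDOC and LDHB fell by 1.35 and 0.83, and GAPDH was at -0.43, short of the threshold. The share of 4 in 28 is close to that of all genes (17.6%), as is that of 6 in 28 (15.9%). In the hexosamine branch GFPT1 and GFPT2, which draw fructose 6-phosphate into amino sugars, rose by 0.81 ± 0.0524 and 1.34 ± 0.131. UAP1 also passed (0.53), but not without PD-L1si IFNγ replicate 2 (0.45).

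Of 23 citric acid cycle genes none rose and 4 fell, led by IDH2, the mitochondrial isocitrate dehydrogenase, from 343 ± 5.47 to 154 ± 8.13 CPM. That share of falls is close to the 15.9% of all genes. Of 30 nuclear genes of oxidative phosphorylation none rose and 9 fell, with a median of -0.27 and NDUFA4 falling by 0.84. MT-CO1 and MT-CO2, of the mitochondrial genome, showed the largest losses in CPM of the genes past the test. MT-CO1, a core subunit of cytochrome oxidase, was at 6525, 7427 and 8916 CPM in PD-L1si. In PD-L1si IFNγ it stood at 4791, 4407 and 5827.5 CPM. Its fall of 0.61 was accompanied by a large spread within groups and was no longer past the test without PD-L1si replicate 3 (-0.48) or PD-L1si IFNγ replicate 2 (-0.52). MT-CO2 and MT-CO3 fell by 0.86 and 0.75. In glutamine metabolism 6 of 20 genes rose and 3 fell, and the glutamine transporter SLC1A5 was at 0.49, just short of the threshold.

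Targets of ATF4, the transcription factor of amino acid shortage, rose in 17 of 22 cases with none lower and a median of 1.15, while the RNA of ATF4 itself was not past the test (-0.05). ATF3, a stress-induced repressor, went from 7.33, 9.22 and 7.8 to 151, 152 and 149.5 CPM (log2 fold change 4.22 ± 0.0656). DDIT3 (CHOP) rose from 20.5 ± 1.09 to 122 ± 0.99 CPM, CEBPB by 2.63 ± 0.0519 and ASNS, asparagine synthetase, by 1.18 ± 0.191. Genes of the immediate early and AP-1 group, which also holds ATF3, rose in 16 of 19 cases: KLF4 from 3.82 ± 0.439 to 97.3 ± 2.54 CPM, JUN by 2.13, FOSL1 by 1.89 and MYC by 0.79, whereas FOS fell by 1.04.

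Genes of the hypoxia list, which holds hypoxia-inducible factors and regulators beside their targets, rose in 13 of 23 cases and fell in 2. Such targets are constitutively on in many ccRCC lines. VEGFA, the angiogenic factor, went from 626 ± 20 to 1004 ± 9.5 CPM, ANGPTL4 rose by 2.03, NDUFA4L2 by 1.84 and CCND1 by 0.52, the last at the threshold (0.50 without PD-L1si replicate 3). CA12 and CA9, carbonic anhydrases of the same programme, fell by 0.68 and 0.54.

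Cholesterol and fatty acid synthesis had the largest share of falls among the metabolic lists. Of 27 genes 22 fell and 1 rose, with a median of -1.04. MSMO1, a demethylase of cholesterol synthesis (ENSG00000052802, chromosome 4, 165327667 to 165343164), was at 178, 188 and 177 CPM and fell to 43.5, 46 and 44 CPM (log2 fold change -2.03 ± 0.0514, edgeR adjusted p = 6.18e-28). FADS2, a fatty acid desaturase, fell from 409.7 ± 4.31 to 111 ± 12.5 CPM and FASN, fatty acid synthase, from 364 ± 8.99 to 113 ± 11.9 CPM. The single rise was CH25H, which makes 25-hydroxycholesterol, an inhibitor of sterol synthesis: it had 0 counts without and 17 with IFNγ, at least 7.27-fold higher.

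Genes of mitosis fell in 22 of 24 cases with a median of -0.96, while those of DNA replication fell in 8 of 25 and none rose (median -0.28). MKI67, the proliferation marker, was at 454, 415 and 401 CPM and fell to 215, 185 and 209 CPM (log2 fold change -1.06 ± 0.0515). KIF20A, a kinesin of the late spindle, went from 94.8 ± 0.868 to 23 ± 1.29 CPM, CDC20 from 129 ± 3.54 to 49.3 ± 6.3 CPM and cyclin B1 (CCNB1) from 97.7 ± 2.54 to 50.8 ± 2.34 CPM. Of the replication genes RRM2, a subunit of ribonucleotide reductase, fell by 1.02, whereas MCM2 (0.15) and PCNA (-0.22) were short of the threshold. Among 13 inhibitors of the cell cycle and p53 targets 2 rose and 4 fell, beside 17.6% and 15.9% of all genes. GADD45A rose from 25.6 ± 1.73 to 149 ± 2.72 CPM, CDKN2C fell by 1.43 and CDKN1A (p21) was at -0.19.

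Matrix and cell state genes were mixed. The counts of this paragraph stand beside rises in 17.6% and falls in 15.9% of all genes. FN1, fibronectin, gained the second-most CPM of the genes past the test, from 2569, 2362.5 and 2382 to 6389, 5965 and 6240.1 CPM. In its list 7 of 33 genes rose and 8 fell. TNC rose by 1.54, MMP7, matrilysin, fell from 71.7 ± 2.38 to 21.2 ± 0.67 CPM and COL4A1 was at 0.25. Of 17 genes of epithelial and mesenchymal state 4 rose and 6 fell: SNAI2 rose by 2.21, while CDH6, the cadherin of the proximal tubule, was at 654, 635 and 661 CPM and fell to 117, 103 and 116 CPM. The kidney transcription factor PAX8 fell from 147 ± 2.72 to 89.8 ± 4.58 CPM. Antioxidant genes rose in 7 and fell in 2 of 17 cases, TXNRD1 by 1.38 against a fall of HMOX1 by 0.65 and of PRDX1 by 1.08. Metallothioneins passed in 1 of 5 cases (MT2A, 0.60 ± 0.137). Of the growth factors and receptors 8 of 19 rose and 3 fell, with MET, the receptor of HGF, at 1.03, AXL at 1.55 and FGFR2 falling by 1.99. HGF itself had 2 counts without and 178 with IFNγ. Cathepsins rose in 4 and fell in 2 of 10 cases, and APOBEC3 genes rose in 2 (APOBEC3G by 2.48) and fell in 2 of 5.

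**Figure D3:**
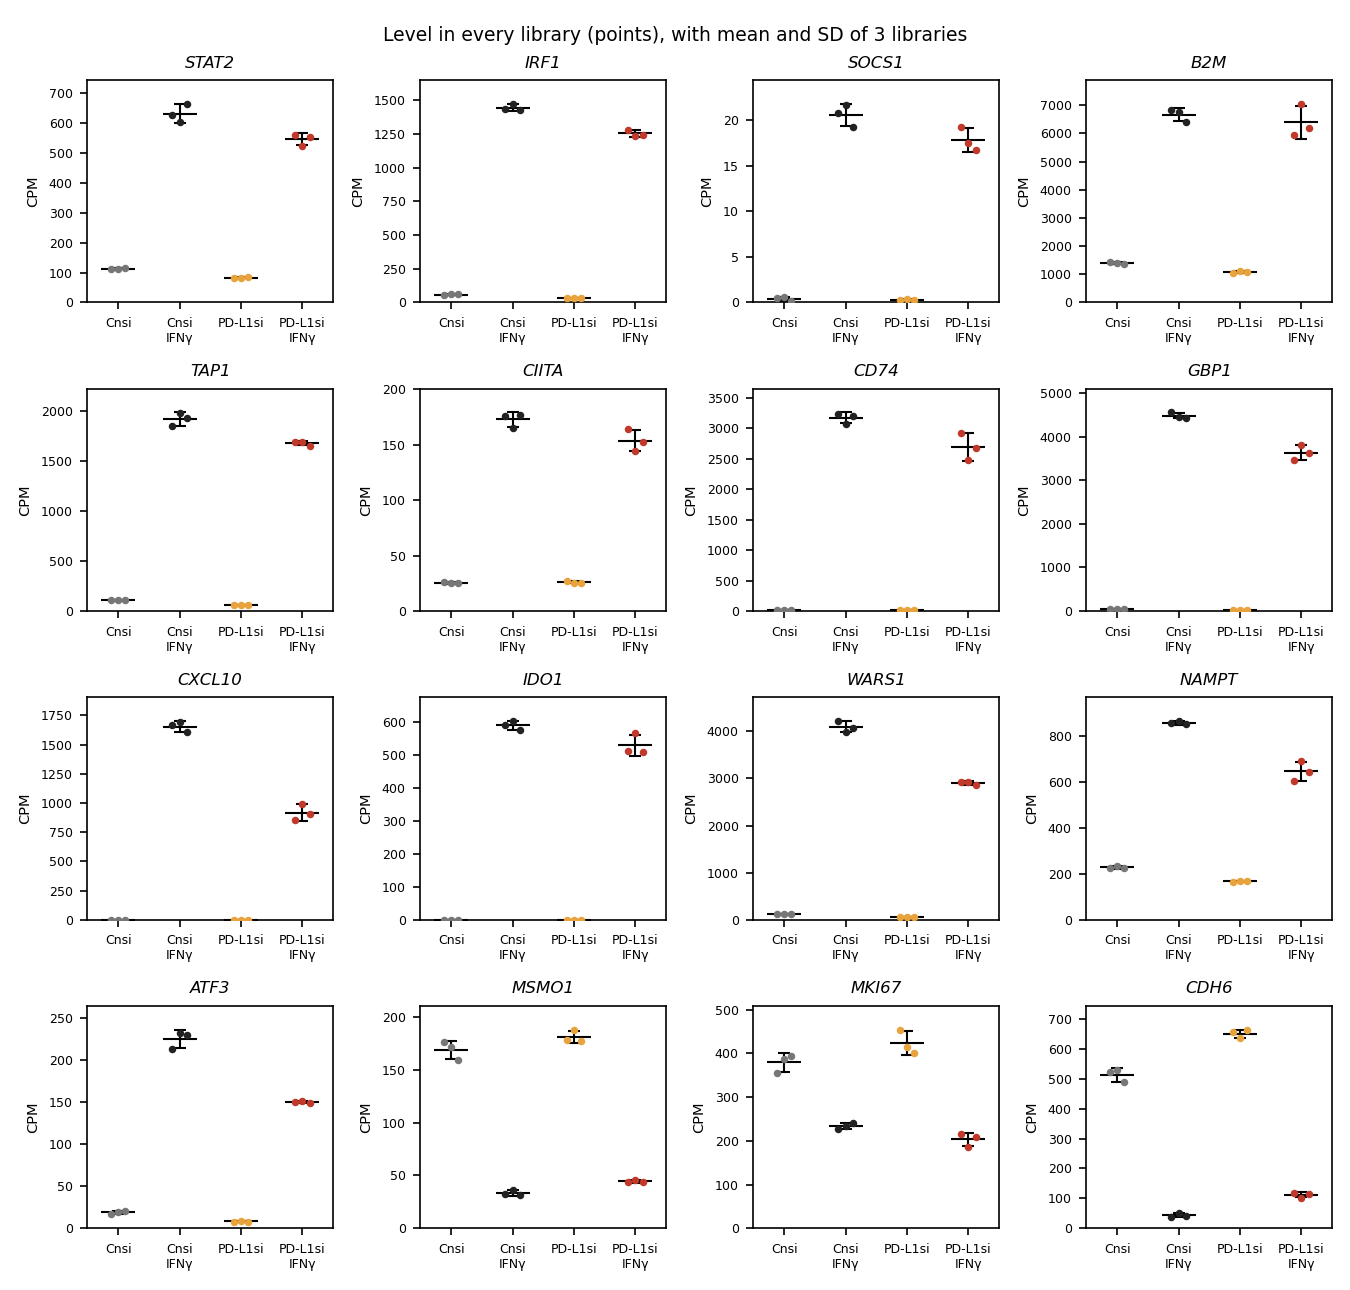
Each panel shows 1 gene, each point the CPM of 1 library, with the mean and SD of the 3 libraries of a group as a bar. PD-L1si and PD-L1si IFNγ do not overlap in any of the 16 panels: 13 genes stand higher with IFNγ, and MSMO1, MKI67 and CDH6 stand lower. The genes were chosen among those named above, and of all 20916 genes 31.5% stood higher and 30.9% lower without overlap.

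Several named genes were nearly lost. CLDN2, the claudin of leaky tubule junctions, was at 91.5, 93.7 and 91.3 CPM in PD-L1si and fell to 3.14, 2.22 and 2.18 CPM (log2 fold change -5.18 ± 0.0845, edgeR adjusted p = 5.57e-34). FGB, the fibrinogen beta chain, went from 12 ± 0.714 to 0.418 ± 0.0489 CPM. GSTA1, a glutathione transferase whose reads may be shared with GSTA2, had 58, 49 and 48 counts in PD-L1si and none in PD-L1si IFNγ, at least 40.3-fold lower, and FABP1, a fatty acid carrier, had 192 counts without and 3 with IFNγ, a ratio of 0.0201 (95% exact counting interval 0.0041 to 0.0595). Among genes past the test, the largest loss in CPM outside the mitochondrial genome was that of CD24, a surface glycoprotein. CD24 went from 2604, 2735 and 2626 to 761, 763 and 788 CPM.

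Whether the response depended on the siRNA was tested as the difference of 2 responses that share no library. It differed in 513 of 20916 genes (2.45%), in 378 with a more positive and in 135 with a more negative effect with PD-L1si. A more positive effect can be a larger rise or a less deep fall. Of the 3675 rises with PD-L1si 3035 (82.6%) were also called rises with Cnsi and 2 were called falls. Another 638 were not called with Cnsi, and the difference passed for 42 of these. Of the 3333 falls 2584 (77.5%) were also called falls with Cnsi, 748 were not called and the difference passed for 25 of them. With Cnsi only, 781 genes were called rises and 1285 falls, and the difference passed for 42 and 92 of these. For CD274 no difference passed (log2 fold change 4.92 with PD-L1si and 5.25 with Cnsi, difference -0.34 ± 0.201, edgeR adjusted p = 0.348).

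**Figure D4:**
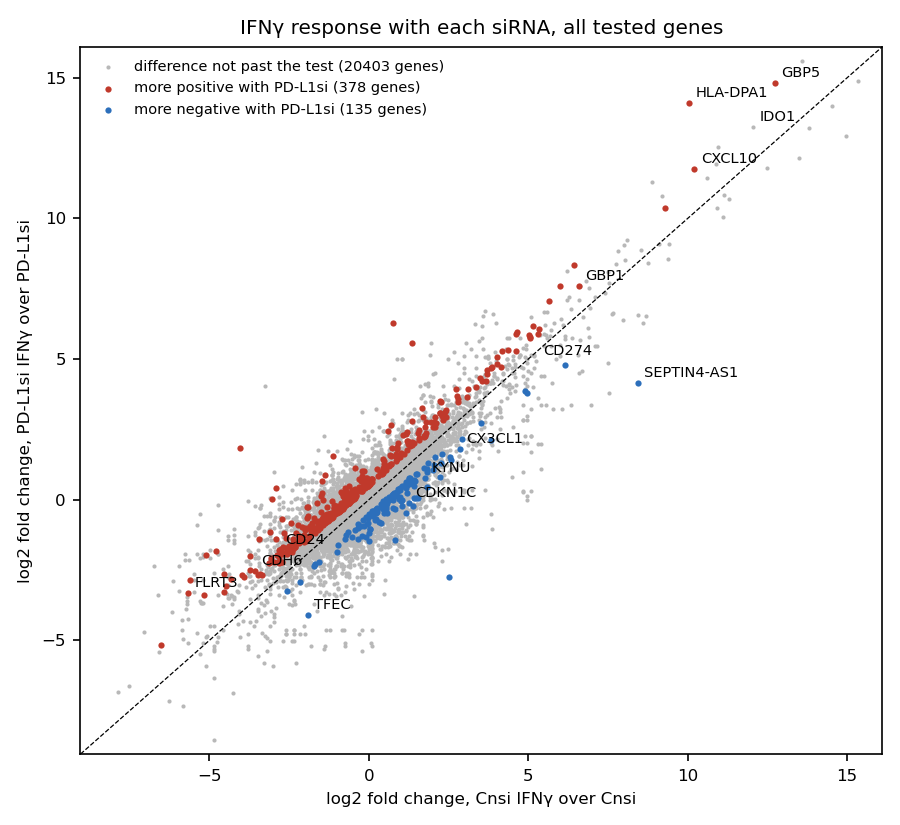
Each point is 1 of 20916 tested genes at its log2 fold change with IFNγ in Cnsi cells (x axis) and PD-L1si cells (y axis), with the line of equal response dashed. The 378 red genes had a more positive and the 135 blue genes a more negative response with PD-L1si (edgeR test of the difference), and most genes with a large response lie near the line.

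The levels of the siRNA groups are needed to read these differences. Without IFNγ 601 genes were higher and 1172 lower in PD-L1si than in Cnsi (2.87% and 5.60% of those tested, 8.48% together), and with IFNγ 911 were higher and 1202 lower (4.36% and 5.75%, 10.1% together). With Cnsi 36.8% of genes were called with IFNγ. GBP1, CXCL10, WARS1, IRF1, ICAM1 and OAS2 rose by a larger factor with PD-L1si but had lower mean CPM than with Cnsi in both states. GBP1 stood at 45.7, 48.4 and 45.7 CPM in Cnsi and 4556, 4457 and 4436 CPM in Cnsi IFNγ, above the PD-L1si values in both states, and its difference in response was 1.00 ± 0.068 (edgeR adjusted p = 1.93e-12). CXCL10 reached 1655 ± 46.5 CPM in Cnsi IFNγ from 1.39 ± 0.145 CPM, and differed by 1.54 ± 0.281. WARS1 reached 4095 ± 117 CPM from 124 ± 3.68 CPM (difference 0.75 ± 0.0575), IRF1 1445.5 ± 25.6 from 58.7 ± 2.17 CPM (difference 0.65 ± 0.0595) and ICAM1 3156 ± 101 from 666 ± 29.3 CPM (difference 0.85 ± 0.0613). OAS2, with 3.41 ± 0.41 CPM in Cnsi and 296.5 ± 6.43 CPM in Cnsi IFNγ, had the largest difference of the antiviral list (1.91 ± 0.183). STAT2 (difference 0.23 ± 0.0609), HLA-B (0.06 ± 0.0523), CD74 (-0.07 ± 0.0791) and NAMPT (0.03 ± 0.0591) were not past the test.

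By list, 4 of 8 GTPases of the guanylate-binding protein list, 5 of 31 antiviral effectors, 5 of 23 genes of the hypoxia list, 5 of 33 matrix genes and 4 of 22 genes of the ATF4 list had a more positive response with PD-L1si and none a more negative one. The same held for 3 of 6 chemokines for neutrophils, 3 of 19 immediate early genes, 2 of 6 interferon regulatory factors and 2 of 9 NK receptor ligands. No other list held more than 2 more positive differences. The background of such genes was 1.81%. Lists with more negative differences, for which the background was 0.645%, were complement, with 2 of 16 genes (C4A and C4B, near-identical copies whose reads may be shared) beside 1 more positive, and, with 1 gene each, the JAK-STAT inhibitors, T cell chemokines, interleukins, tryptophan enzymes, glutamine genes, cell cycle inhibitors and growth factors. In the class I list no difference passed, and in the class II list 1 did, that of HLA-DPA1, which rests on 8 counts in Cnsi against 0 in PD-L1si. IL6 reached 75.6 ± 4.23 CPM in Cnsi IFNγ from 11.1 ± 0.488 CPM, a difference of 0.94 ± 0.126. CXCL8 fell with Cnsi, from 40 ± 2.59 to 16 ± 1.55 CPM, and not past the threshold with PD-L1si, a difference of 1.07 ± 0.126.

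Many of the 378 more positive differences were falls that were less deep with PD-L1si. They included 121 genes called falls with both siRNAs and 92 called falls with Cnsi only. Genes called rises with both siRNAs made up 98, and those called rises with PD-L1si only 42. CDH6 dropped to 38.3, 50.4 and 41 CPM in Cnsi IFNγ, below the 117, 103 and 116 CPM in PD-L1si IFNγ (difference 1.03 ± 0.0999). CD24 dropped to 337 ± 36 CPM in Cnsi IFNγ from 2385 ± 143 CPM (difference 1.04 ± 0.0744), and CLDN2 to 0.518 ± 0.115 from 48.6 ± 2.74 CPM (difference 1.34 ± 0.243). KMO fell from 231 ± 4.59 to 116 ± 9.23 CPM in Cnsi and stood at -0.33 with PD-L1si, short of the threshold (difference 0.67 ± 0.0641, edgeR adjusted p = 2.12e-09).

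A weaker rise with PD-L1si was seen for fewer genes. KYNU reached 30.4 ± 1.41 CPM in Cnsi IFNγ from 8.94 ± 0.352 CPM, against 9.38, 12.8 and 10.3 CPM with PD-L1si, a difference of -1.01 ± 0.129 (edgeR adjusted p = 7.89e-07). SOCS3 rose by 1.81 with Cnsi and 1.10 with PD-L1si, a difference of -0.71 ± 0.0702. CDKN1C, the cell cycle inhibitor p57, rose with Cnsi from 1.42 ± 0.206 to 3.37 ± 0.548 CPM and was at 1.85 ± 0.165 and 1.71 ± 0.163 CPM with PD-L1si, a difference of -1.38 ± 0.252. CX3CL1, chosen after its values were seen, reached 127 ± 2.35 CPM in Cnsi IFNγ and 70.1 ± 5.6 CPM in PD-L1si IFNγ, a difference of -1.05 ± 0.0795. IGFBP3, also chosen after its values were seen, went the other way, with a more positive response with PD-L1si (difference 1.16 ± 0.0538). It rose with PD-L1si from 1484 ± 40 to 3001 ± 56.5 CPM but stood at 3145 ± 113 and 2854 ± 78 CPM in Cnsi and Cnsi IFNγ.

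**Figure D5:**
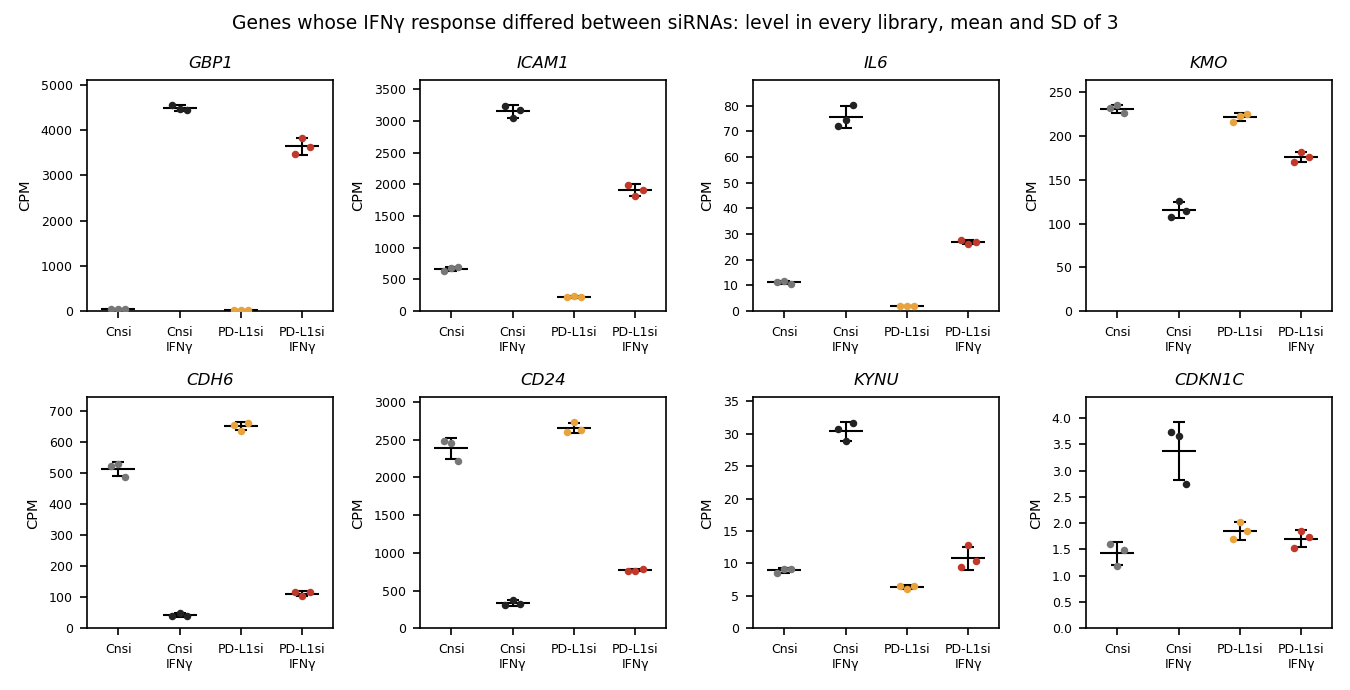
Each panel shows 1 gene whose IFNγ response differed between the siRNAs, each point the CPM of 1 library, with the mean and SD of 3 libraries. GBP1, ICAM1 and IL6 start and end lower with PD-L1si, CDH6 and CD24 end higher, and KYNU and CDKN1C end lower with PD-L1si IFNγ than with Cnsi IFNγ.

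The other PD-L1si response of the series, in the libraries labelled 786-O, differed in 4667 of 17999 genes tested in both (25.9%). Of 3141 rises tested in both 1141 (36.3%) were also rises there and 87 were falls. Of 2858 falls 561 (19.6%) were also falls and 93 were rises. The shares of all genes called rises and falls under the 786-O label were not counted, so these overlaps cannot be read beside a background. The line and the sequencing instrument cannot be told apart. A further limit was that 1475 genes with over 1000 counts under the A498 label were listed at 0 throughout under the 786-O label, IFNGR1 among them, so that no comparison was made for these. Some interferon-induced genes rose in both: WARS1 rose by 5.37 in the libraries labelled 786-O and 5.79 in those labelled A498, and CIITA by 2.76 and 2.57, with neither difference past the test. CD74 rose by 6.77 and 7.34, a difference of -0.57 ± 0.0879 that passed. GBP1 rose by 4.97 there, a difference of -2.62 ± 0.0732 (edgeR adjusted p = 6.73e-28).

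MSMO1 and MKI67, which fell in the libraries labelled A498, were short of the log2 threshold of 0.5 in those labelled 786-O. MSMO1 had 2635, 3154 and 2562 counts without and 2204, 2126 and 2302 with IFNγ there, a log2 fold change of -0.21 and a difference of 1.81 ± 0.0866 (edgeR adjusted p = 1.84e-19). MKI67 was at -0.07 (difference 0.98 ± 0.0868). CLDN2 was at -0.02, against its near-complete loss in the libraries labelled A498 (difference 5.16 ± 0.136). The HLA class II chains had counts without IFNγ in the libraries labelled 786-O, 154, 202 and 172 for HLA-DRA, and rose to 8561, 9433 and 9707. APOBEC3G, which mutates viral DNA, rose from 0, 1 and 0 counts to 411, 508 and 475 counts there, and the difference from its rise in the libraries labelled A498 was 7.54 ± 0.46, a fitted value that rests on that single count.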

How the data were processed

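The authors deposited raw counts per gene, made per the labels and their processing notes with bcl2fastq 2.19.0, Trimmomatic 0.36.6, HISAT2 2.1.0 and featureCounts 1.6.3 (GRCh38). Of 39321 genes 39148 were matched to GENCODE 44 for names and coordinates. The 12 libraries labelled A498 were fitted with edgeR 4.0.16 (R 4.3.3; TMM, robust quasi-likelihood test, 1 mean per group) over 20916 genes (sum of 10 or more counts in 1 group). All 24 libraries were fitted for the difference between lines. Fold changes and calls within the 786-O label came from a like fit of its 12 libraries alone, over 21209 genes. P-values were adjusted by Benjamini-Hochberg over all genes tested. Genes with no count in a group were set to a floor of 3 counts over the group. Intervals and floors cover counting error only. On simulated counts 194 of 200 genes changed by 2-fold were recovered with 4 false calls for the response, and 185 with 2 for the difference between siRNAs (20303 genes). The simulation changed no gene of few counts, gave all genes the same spread and left all other genes unchanged. Its figures therefore do not cover genes of few counts, smaller changes or a response as wide as that of these data. DESeq2 1.42.0, other thresholds, normalisation and filters, a replicate block and leaving out each library were tried.

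Named genes were CD274, chosen members of each list, the most changed members of each list, the largest changes in fold and CPM, and the largest differences between siRNAs and lines. ATF4, CA9, CCL5, CSF2, CX3CL1, DDIT3, FASN, FOS, GAPDH, IFITM2, IGFBP3, JAK1, JUN, LDHB, VTCN1, C4A, C4B, HLA-DOA, IFI30, PSMB8 and PSMB10 fall outside this rule and were chosen after their values were seen. Members and lists were chosen with earlier results of these data known. Promoters were searched in the 250 bases before the start only. Results that need items withheld for evaluation are not reported here.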

Additional observations from a re-analysis of the deposited data

Results flagged for a closer look

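The IFNγ effect differed between the siRNAs, by a test of the difference itself, in 513 genes. The differences were ranked among genes called with IFNγ under PD-L1si or Cnsi and with a mean of at least 1 CPM in a group. The most positive (PD-L1si minus Cnsi, log2) were those of HLA-DPA1 at 4.04, AACSP1 at 3.16, LINC01151 at 2.96 and NRAD1 at 2.73. FLRT3 followed at 2.35, GBP5 at 2.09, GASK1B-AS1 at 2.05 and ENSG00000263443 at 2.04. HLA-DPA1 had 1, 2 and 5 counts in Cnsi and 0, 0 and 0 in PD-L1si, so that its fitted difference depends on the prior count. The most negative fitted values were those of SEPTIN4-AS1 at -4.29, TFEC at -2.19, SCARF1 at -1.71, LINC02802 at -1.65, DRP2 at -1.49, CLUHP3 at -1.44, CDKN1C at -1.38 and PPP1R1A at -1.37. SEPTIN4-AS1 had no count in Cnsi without IFNγ, so that its value depends on the prior count too. AACSP1 had 2 counts in all in Cnsi IFNγ, and GBP5 had few in PD-L1si without IFNγ, so that their values are imprecise. Called in opposite directions with the siRNAs were ENSG00000272817 (difference 5.87), ENSG00000287584 (-5.25) and ENSG00000259209 (2.24), each at low counts, the first with no count in Cnsi IFNγ.

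The IFNγ effect with PD-L1si differed between the libraries labelled 786-O and A498, again by a test of the difference, in 4667 genes. The differences were ranked among genes with a mean of at least 1 CPM in a PD-L1si group of each label. The most positive (786-O minus A498, log2) were those of APOBEC3G at 7.54, TFEC at 6.06, HAVCR2 at 6.06, CLDN2 at 5.16 and TNFRSF14 at 4.36. The most negative were those of HLA-DRB1 at -9.76, HLA-DRA at -9.31, HLA-DPA1 at -8.06, HLA-DQB1 at -7.25 and HLA-DRB5 at -6.70. These 5 HLA genes had 0 counts in the PD-L1si libraries labelled A498, so that their fitted differences depend on the prior count.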

How the results depend on the processing

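Calling by adjusted p alone gave 6276 rises and 5957 falls, 1327 more positive and 573 more negative differences between siRNAs, and 4083 and 3863 between lines. A log2 fold change over 1 gave 1728 and 1476, 84 and 35, and 964 and 960. Leaving out each library in turn gave 3515 to 3578 rises and 3122 to 3318 falls, 288 to 422 and 101 to 159 differences between siRNAs, and 2130 to 2329 and 2222 to 2410 between lines. DESeq2 gave 3380 rises and 2950 falls, 257 and 100 differences between siRNAs, and 2106 and 2340 between lines. Replicate numbers did not pair the libraries (correlations of same-numbered deviations 0.0555, 0.0127 and 0.0181), and with the replicate block 3661 genes rose and 3335 fell, 394 and 140 differed between siRNAs, and 2373 and 2310 between lines. No result reversed under the alternatives run. Among named genes, leaving out 1 library ended the calls of CCND1, PARP1, UAP1, MT-CO1, MT-ND4, CLUHP3, ENSG00000272817, ENSG00000287584 and ENSG00000259209, and the differences between siRNAs of HLA-DPA1, FLRT3, GBP5, SEPTIN4-AS1, TFEC, SCARF1, LINC02802, CLUHP3, PPP1R1A, ENSG00000263443, ENSG00000287584 and ENSG00000259209. DESeq2 ended the calls of CLUHP3, ENSG00000272817, ENSG00000287584 and ENSG00000259209, no filter those of ENSG00000272817 and ENSG00000259209 and the differences of SEPTIN4-AS1 and PPP1R1A, and the replicate block that of ENSG00000259209. A log2 fold change over 1 ended 42 calls of named genes by its construction. With 3 libraries a group, genes of few counts have wide errors.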
